A study of Mus musculus with 6 samples.

Results

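The expression of 35 genes for lysosomal enzymes and lysosomal membrane proteins was examined in mouse quadriceps, using total RNA-seq libraries from 3 wild-type (WT) and 3 HSA-LR samples (HSALR in the labels) taken at 12 weeks of age. The genes were taken from a fixed list of lysosome proteins and matched by symbol, and they make up 35 of the 53947 genes in the deposited tables. In HSA-LR mice a transgene made from the gene for human skeletal actin holds about 220 CTG repeats, and WT mice lack it. The transgene is driven in skeletal muscle, and its expanded CUG RNA sequesters MBNL splicing factors, so the mouse serves as a model of myotonic dystrophy type 1 for the myofibre but not for other cells of the muscle. Strain and sex are not given in the sources used here. The labels do not say whether the libraries of a group are from different animals, and the p-values hold for the spread between these libraries only.

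Lysosomes are acidic organelles that take up material by endocytosis and autophagy and break it down with hydrolases. Cathepsins and other proteases cut proteins, glycosidases and sulfatases take sugar chains apart, and a further group of enzymes and transfer proteins handles lipids, while the limiting membrane is lined by heavily glycosylated proteins. In skeletal muscle the organelle is known above all through glycogen storage disease, in which the loss of acid alpha-glucosidase fills lysosomes with glycogen, and cells of the macrophage lineage are particularly rich in lysosomal enzymes.

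Library totals ranged from 14048603 to 15023710 counts in WT and from 11468959 to 13220792 in HSA-LR. The share of counts assigned to 7SL and 7SK RNA, abundant non-coding RNAs, was 14.1% to 15.5% in WT and 18.8% to 43.9% in HSA-LR, with the highest share in HSA-LR replicate 1, which stood apart from the other libraries. Protein coding genes took 80.4% to 81.6% of the counts in WT and 51.7% to 76.5% in HSA-LR. Myofibre markers were abundant in every library, at a summed 99050 to 112800 CPM (counts relative to the TMM-scaled size of the library) in WT and 54080 to 93210 CPM in HSA-LR. Each lysosomal gene was detected in all 6 libraries, with 24 to 9172 counts, and all 35 passed the filter on low counts.

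The lysosomal genes did not move as one group. In HSA-LR 7 of the 35 genes rose and 2 fell, and the 7 that rose included 4 of the 9 cysteine proteases, of which Ctss and Ctsk showed the highest folds, 3.15 and 2.89. The genes that fell were Gaa, acid alpha-glucosidase, at 0.610 of its WT level, and the peptidase gene Tpp1, at 0.641. As the tissue was measured in bulk, a change in the number of cells of a type cannot be told apart from a change in RNA per cell. The call was made by edgeR's quasi-likelihood test at a p below 0.05 after Benjamini-Hochberg adjustment over all 13576 genes tested, and log2 fold changes are HSA-LR over WT with their SE. The share of lysosomal genes that rose was 20.0%, where 4.28% of all tested genes rose, and the share that fell was 5.71%, where 7.48% of all tested genes fell. The median log2 fold change of the 35 genes was 0.29, beside 0.04 over all tested genes, with 24 positive and 11 negative values between -0.71 and 1.65. This median was 0.09 without HSA-LR replicate 1 and -0.0075 once the share of 7SL and 7SK entered the fit as a covariate. In that fit only Ctsc was still called higher and Tpp1 and Ids lower (2.67% and 4.22% of all tested genes). The share did not overlap between the groups, so fits with this covariate cannot cleanly separate it from the group. The values of the groups did not overlap for 23 of the 35 genes (65.7%), 16 with HSA-LR higher and 7 with HSA-LR lower, and for 37.8% of all tested genes (17.8% with HSA-LR higher and 20.0% with HSA-LR lower).

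**Figure D1:**
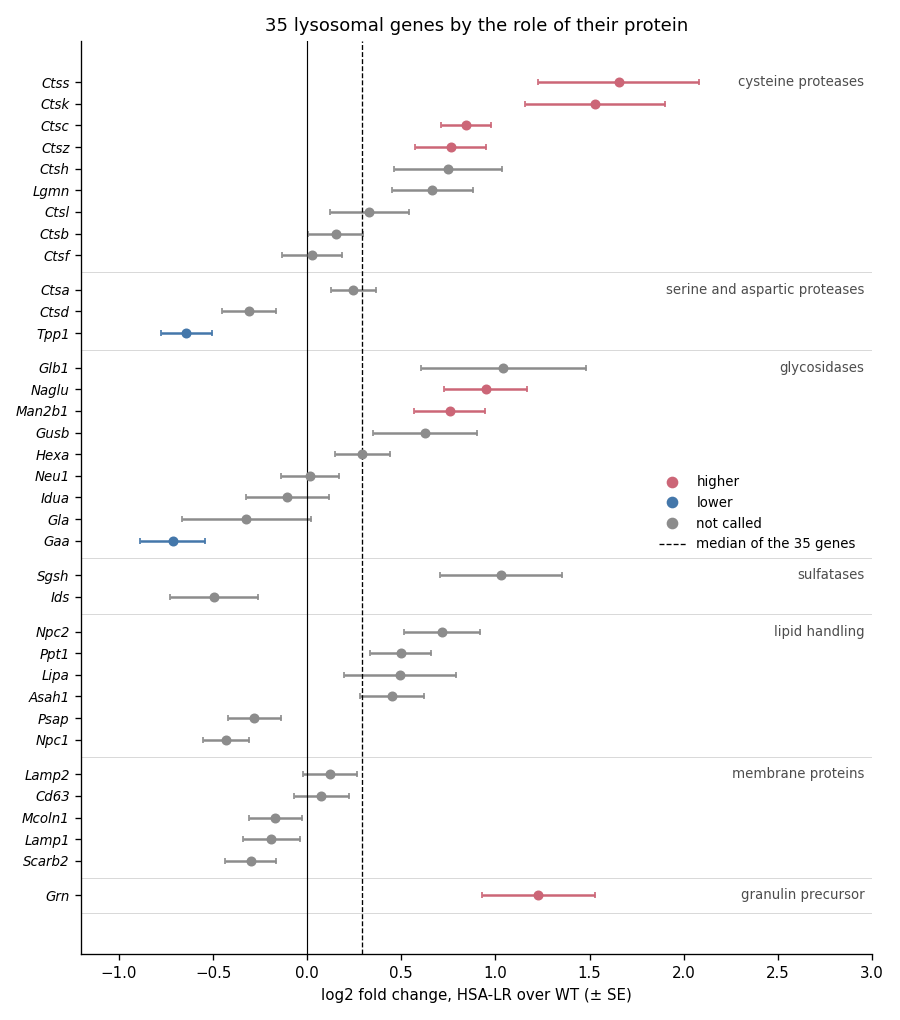
Log2 fold change (HSA-LR over WT, ± SE) of 35 lysosomal genes on TMM-scaled counts, ordered by the role of their protein, with the genes that rose in red, those that fell in blue and the others in grey. The 9 cysteine proteases at the top lie to the right of 0 on this scale. On the TPM scale 6 of 9 did, where the median of all tested genes was -0.46. The dashed line marks the median of 0.29.

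The cysteine proteases form the largest family of cathepsins, papain-like enzymes with a cysteine in the active site, to which the asparaginyl endopeptidase legumain (Lgmn) is here added. Of 9 measured, 4 rose and 0 fell, with a median log2 fold change of 0.75. All 9 values were positive with TMM scaling, but 6 of 9 were positive on the TPM scale (transcript abundance, scaled to a fixed sum) or with 7SL and 7SK RNA as a covariate, and 8 of 9 without HSA-LR replicate 1. With the trend on transcript length removed, 8 of 9 were positive. The median of the 9 was 0.42 without HSA-LR replicate 1, 0.22 with the covariate and 0.17 on the TPM scale. On the TPM scale the median of all tested genes was -0.46, and 8 of the 9 lay above it, as many as with TMM. Ctss encodes cathepsin S, a protease of antigen-presenting cells that trims the invariant chain of MHC class II. It was measured at 4.10, 4.97 and 6.39 CPM in WT replicates 1, 2 and 3 and at 27.7, 8.63 and 12.6 CPM in HSA-LR. All HSA-LR libraries lay above all WT libraries, and replicate 1 was more than the other two combined. The log2 fold change of Ctss was 1.65 ± 0.43 (adjusted p = 0.0476, edgeR).

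Ctsk encodes cathepsin K, the collagen-degrading protease best known from osteoclasts. Its level was 4.67, 3.58 and 3.72 CPM in WT and 19.0, 7.10 and 8.66 in HSA-LR. As for Ctss, the groups did not overlap and HSA-LR replicate 1 was far above replicates 2 and 3. Ctsk rose by a log2 fold change of 1.53 ± 0.37 (adjusted p = 0.0371, edgeR). Ctsk and Ctss are neighbours on chromosome 3 (GRCm39), at 95406178 to 95416732 and 95433963 to 95463717, with 17230 bases between their annotated ends.

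Ctsc (chromosome 7, 87927092 to 87960096) encodes cathepsin C, or dipeptidyl peptidase I, which activates the serine proteases of granules in immune cells. It was measured at 37.2, 31.7 and 34.8 CPM in WT and at 59.4, 68.9 and 57.5 CPM in HSA-LR. The HSA-LR libraries lay close together, and the highest was replicate 2, not replicate 1. Ctsc had the lowest p of the 35 genes, with a log2 fold change of 0.84 ± 0.13 (adjusted p = 0.00893, edgeR), and it was the one gene whose call outlasted the removal of any HSA-LR library. Ctsz (chromosome 2, 174267304 to 174280832) encodes cathepsin Z, a carboxypeptidase. Its level was 18.3, 17.2 and 21.3 CPM in WT and 37.9, 23.6 and 34.7 in HSA-LR. HSA-LR replicate 2 was only a little above the highest WT library, and the log2 fold change was 0.76 ± 0.19 (adjusted p = 0.0356, edgeR).

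The remaining cysteine proteases were not called. Lgmn had a log2 fold change of 0.67 ± 0.21 (adjusted p = 0.0712, edgeR) and Ctsh, an aminopeptidase, one of 0.75 ± 0.29 (adjusted p = 0.113, edgeR), both with no overlap between groups. Ctsb and Ctsl, the general-purpose endopeptidases of the lysosome, were the most abundant of the family. Ctsb was measured at 258, 250 and 256 CPM in WT and at 309, 243 and 295 CPM in HSA-LR. Here the groups overlapped, with replicate 2 below all WT libraries, and the log2 fold change was 0.15 ± 0.15 (adjusted p = 0.505, edgeR). Ctsl was measured at 59.4, 65.5 and 63.4 CPM in WT and at 109, 66.4 and 61.8 CPM in HSA-LR. Only HSA-LR replicate 1 stood above WT by more than the spread of the WT libraries, and the log2 fold change was 0.33 ± 0.21 (adjusted p = 0.305, edgeR). Ctsf had a log2 fold change of 0.03 ± 0.16, but its exons overlap those of Actn3, a myofibre gene on the opposite strand at 3830 CPM in WT and 2082 in HSA-LR.

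**Figure D2:**
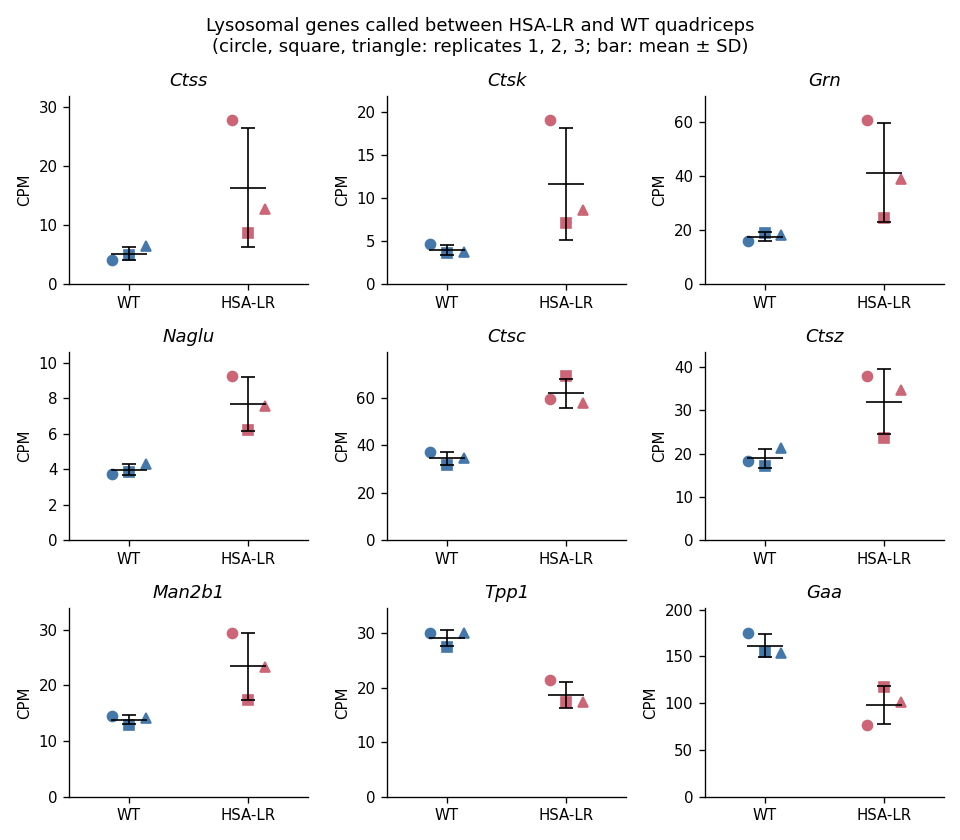
CPM (y axis, from 0) in each library of the 9 lysosomal genes that rose or fell, with circle, square and triangle for replicates 1, 2 and 3 and a bar for the mean ± SD. WT and HSA-LR did not overlap for any of the 9, which were picked by the test on the same counts, nor for 37.8% of all tested genes. HSA-LR replicate 1 (red circle) was the highest library for 6 of the 7 genes that rose.

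Of the 3 serine and aspartic proteases 1 fell and 0 rose, with a median log2 fold change of -0.31. Tpp1 (chromosome 7, 105394018 to 105401481) encodes tripeptidyl peptidase I, a serine protease that removes tripeptides from the ends of proteins and whose loss causes a form of neuronal ceroid lipofuscinosis. It was measured at 30.1, 27.6 and 30.04 CPM in WT and at 21.5, 17.4 and 17.3 CPM in HSA-LR. All HSA-LR libraries were below all WT libraries, with replicates 2 and 3 almost equal. Tpp1 fell by 0.64 ± 0.14 on the log2 scale (adjusted p = 0.0223, edgeR). Ctsd, the aspartic protease cathepsin D, was the most abundant of the 35 genes per length. Its level was 563, 569 and 550 CPM in WT and 419, 462 and 477 in HSA-LR. The groups did not overlap, but the log2 fold change of -0.31 ± 0.14 did not pass the test (adjusted p = 0.173, edgeR). Ctsa, a carboxypeptidase that also protects Neu1 and Glb1 in a complex, had a log2 fold change of 0.25 ± 0.12 (adjusted p = 0.194, edgeR), also with no overlap between groups.

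Of 9 glycosidases, 2 rose and 1 fell, with a median log2 fold change of 0.29. Naglu (chromosome 11, 100960838 to 100968517) encodes alpha-N-acetylglucosaminidase, which acts on heparan sulfate. Its level was 3.75, 3.84 and 4.31 CPM in WT and 9.23, 6.21 and 7.59 in HSA-LR. Naglu rose in all HSA-LR libraries above the narrow range of WT, by a log2 fold change of 0.95 ± 0.22 (adjusted p = 0.0289, edgeR). Man2b1 (chromosome 8, 85809885 to 85825361) encodes lysosomal alpha-mannosidase, which takes part in the breakdown of N-linked glycans. It was measured at 14.5, 12.9 and 14.1 CPM in WT and at 29.5, 17.4 and 23.4 CPM in HSA-LR. The groups did not overlap, the HSA-LR libraries were widely spread, and the log2 fold change was 0.76 ± 0.19 (adjusted p = 0.0373, edgeR).

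Gaa (chromosome 11, 119158708 to 119176525), the enzyme that frees glucose from lysosomal glycogen and is deficient in Pompe disease, was the most abundant glycosidase and the only one that fell. Its level was 175, 155 and 154 CPM in WT and 76.7, 117 and 101 in HSA-LR. All HSA-LR libraries lay below WT, and replicate 1 was lowest. Gaa fell by 0.71 ± 0.17 on the log2 scale (adjusted p = 0.0332, edgeR). Other glycosidases did not pass the test. Glb1, beta-galactosidase, had a log2 fold change of 1.04 ± 0.44 (adjusted p = 0.138, edgeR), which rested on HSA-LR replicate 1, at 9.04 CPM where replicates 2 and 3 had 3.23 and 2.95 CPM and WT 2.23 to 2.65 CPM. Gusb, beta-glucuronidase, had a log2 fold change of 0.63 ± 0.28, and Hexa, the alpha subunit of beta-hexosaminidase, one of 0.29 ± 0.14. Neu1 (neuraminidase), Idua (alpha-L-iduronidase) and Gla (alpha-galactosidase A) had values of 0.02 ± 0.15, -0.11 ± 0.22 and -0.32 ± 0.34, with overlapping groups.

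Neither of the sulfatases, which remove sulfate groups from heparan sulfate, was called by edgeR, where 1 had an unadjusted p below 0.05. Sgsh had a log2 fold change of 1.03 ± 0.32 (adjusted p = 0.0675, edgeR) and Ids one of -0.49 ± 0.23 (adjusted p = 0.18, edgeR). DESeq2, which called 10 of the 35 genes higher and 2 lower (8.57% and 9.31% of all tested genes), called Sgsh, Npc2 and Lgmn beside the 7 genes that edgeR called higher. Of the 6 genes for lipid handling 0 were called by edgeR and 1 (Npc2) by DESeq2, while 4 had an unadjusted edgeR p below 0.05. Npc2 and Npc1, partners in the export of cholesterol from lysosomes, had values of opposite sign, 0.71 ± 0.20 for the soluble carrier Npc2 (adjusted p = 0.0513, edgeR) and -0.43 ± 0.12 for the membrane transporter Npc1 (adjusted p = 0.0514, edgeR). In neither gene did the groups overlap, with Npc2 at 17.6 to 27.8 CPM in WT and 30.4 to 42.9 in HSA-LR, and Npc1 at 23.3 to 25.2 CPM in WT and 16.7 to 18.5 in HSA-LR. Npc2 shares exon sequence with Isca2 on the opposite strand, which had 17.4 CPM in WT and 25.2 in HSA-LR.

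Psap encodes prosaposin, the precursor of the saposins that present sphingolipids to their hydrolases. It was measured at 632, 608 and 596 CPM in WT and at 526, 485 and 500 CPM in HSA-LR. The groups did not overlap, and the log2 fold change of -0.28 ± 0.14 did not pass the test (adjusted p = 0.206, edgeR). The other enzymes of lipid breakdown had positive values that were not called. They were 0.50 ± 0.16 for Ppt1 (palmitoyl-protein thioesterase), 0.45 ± 0.17 for Asah1 (acid ceramidase) and 0.49 ± 0.30 for Lipa (acid lipase).

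The proteins of the lysosomal membrane are structural glycoproteins, receptors and channels. Of 5 measured, 0 were called by edgeR or DESeq2 and 0 had an unadjusted edgeR p below 0.05, with a median log2 fold change of -0.17. Lamp1, a main structural glycoprotein of the membrane, was measured at 340, 320 and 321 CPM in WT and at 262, 329 and 269 CPM in HSA-LR. HSA-LR replicate 2 lay within the WT range and the other two below it, and the log2 fold change was -0.19 ± 0.15 (adjusted p = 0.403, edgeR). Scarb2, the receptor that carries glucocerebrosidase to lysosomes, had a log2 fold change of -0.30 ± 0.14 and Mcoln1, a calcium channel of the membrane, one of -0.17 ± 0.14, both without overlap. Lamp2 and Cd63 were at 0.12 ± 0.14 and 0.07 ± 0.15.

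Grn encodes progranulin, a secreted glycoprotein that is delivered to lysosomes and cut there into granulins. Its level was 15.8, 18.7 and 18.1 CPM in WT and 60.5, 24.3 and 38.8 in HSA-LR. HSA-LR libraries were all above WT but far from each other, and the log2 fold change was 1.23 ± 0.30 (adjusted p = 0.0403, edgeR). Grn lies on chromosome 11 at 102321141 to 102327874.

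The calls depended on single libraries, while the direction of the 9 called genes was the same in every alternative fit. Of 16 alternative fits, the call was lost in 10 for Ctss, 9 for Grn, 8 for Ctsk and Gaa, and 7 for Ctsz and Naglu. It was lost in 6 for Man2b1, 5 for Tpp1 and 4 for Ctsc. Without HSA-LR replicate 1, the same 7 genes were called higher (5.94% of all tested genes), with smaller log2 fold changes for Ctss (1.06), Ctsk (0.99) and Grn (0.86), and Gaa, Tpp1, Npc1 and Ids were called lower (8.46%). Without HSA-LR replicate 2, 13 lysosomal genes were called higher and 3 lower (10.6% and 13.0% of all tested genes). Without HSA-LR replicate 3, Ctsc alone was called, and without WT replicate 1, 2 or 3 edgeR called 0 of the 35 genes, although in the fits without a WT library 9 to 12 of them had an unadjusted p below 0.05 with HSA-LR higher and 3 with HSA-LR lower. In these 4 fits 0.3% to 0.361% of all tested genes were called higher and 0.886% to 1.2% lower (0.975% without HSA-LR replicate 3).

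Levels between genes were compared as RPKM (CPM per kilobase of effective length). Mean levels over the 6 libraries ran from 1.12 RPKM for Gla to 258 RPKM for Ctsd, with a median of 9.32 RPKM beside 4.79 RPKM over all tested genes. In descending order Ctsd, Psap, Lamp1, Ctsb, Ctsl and Gaa led the list, and the genes that rose were spread over it below these, from Ctsc at 27.6 RPKM to Naglu at 2.57 RPKM. In WT the neighbours Ctsd (286 ± 4.96 RPKM, SD, n = 3) and Psap (247 ± 7.41 RPKM) were apart by more than their spread, and so were Psap and Lamp1 (158 ± 5.38 RPKM) and Lamp1 and Ctsb (117 ± 1.70 RPKM). In HSA-LR Lamp1 (139 ± 17.8 RPKM) and Ctsb (130 ± 15.97 RPKM) were not.

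The 4 most abundant genes, of which 0 were called by edgeR or DESeq2, made up a smaller part of the summed level in HSA-LR. Their share of the summed level of all 35 genes was 67.3%, 66.3% and 65.9% in the WT libraries and 54.6%, 62.1% and 61.4% in the HSA-LR libraries. The groups did not overlap, with means of 66.5% ± 0.712 (SD, n = 3) and 59.4% ± 4.16, a difference for which no test was made. Ctsd, Psap, Lamp1 and Ctsb together had 824, 805 and 794 RPKM in WT and 695, 702 and 711 RPKM in HSA-LR. The other 31 genes together had 401, 409 and 411 RPKM in WT and 578, 428 and 446 RPKM in HSA-LR. On this scale neither sum overlapped between the groups and they differed in opposite directions. With TPM both were lower in HSA-LR, the sum of the other 31 genes at 236 to 259 TPM in WT and 146.5 to 230.0 TPM in HSA-LR. On the TPM scale the median log2 fold change of all tested genes was itself -0.46. The sum over all 35 was 1214 ± 10.4 RPKM in WT and 1186 ± 75.8 RPKM in HSA-LR, a difference within the spread of the HSA-LR libraries.

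**Figure D3:**
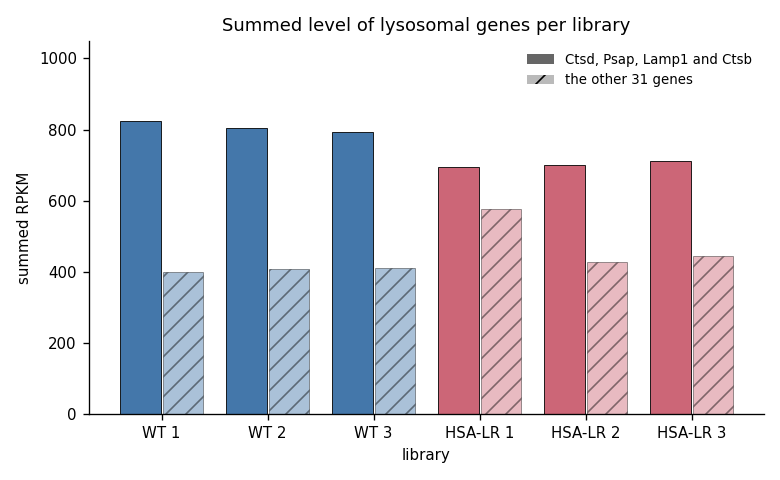
Summed RPKM per library (y axis, from 0) of Ctsd, Psap, Lamp1 and Ctsb (solid bars) and of the other 31 lysosomal genes (hatched bars), with WT in blue and HSA-LR in red. The solid bars are at 794 to 824 in WT and 695 to 711 in HSA-LR, and the hatched bars at 401 to 411 in WT and 428 to 578 in HSA-LR. With TPM scaling the order of the groups turned round for the hatched bars only, where the median log2 fold change of all tested genes was -0.46.

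The libraries of the HSA-LR group differed in how far the lysosomal genes were displaced. Measured from the WT mean, the median log2 difference of the 35 genes came to 0.53, 0.08 and 0.18 in HSA-LR replicates 1, 2 and 3, and to -0.01, -0.03 and 0.01 in the WT replicates. For all tested genes this median was 0.02 in each HSA-LR library. HSA-LR replicate 1 was the highest library of its group for 26 of the 35 genes (74.3%) and for 38.9% of all tested genes. Among the cysteine proteases it was the highest for 8 of 9.

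Macrophage markers moved in the same libraries. The summed level of 14 macrophage markers was 161 to 183 CPM in WT and 235 to 717 in HSA-LR, with the highest value in HSA-LR replicate 1. Of the 12 that could be tested 6 rose and 0 fell, among them Adgre1 (F4/80), with a log2 fold change of 1.31 ± 0.31 (adjusted p = 0.0318, edgeR), and Cd163, with one of 1.34 ± 0.29 (adjusted p = 0.0249, edgeR). Without HSA-LR replicate 1 the log2 fold changes of all 12 stayed positive, with a median of 0.77 in place of 1.27, and with 7SL and 7SK RNA as a covariate 10 of the 12 were positive, with a median of 0.35. The median log2 difference of the 12 markers, taken from WT as for the lysosomal genes, came to 1.96, 0.53 and 1.02 in HSA-LR replicates 1, 2 and 3, the same order of libraries as for the 35 lysosomal genes. Each of the 14 was detected in all HSA-LR libraries, and Trem2 was at 0 in WT replicate 3. Trem2, 1 of the 6 that rose, had 4, 2 and 0 counts in WT and 52, 14 and 23 in HSA-LR. It passed the filter on low counts only through HSA-LR, so its positive value was favoured in advance. Aif1, at 7, 11 and 8 counts in WT, also passed only through HSA-LR, so its positive value was favoured too. Both genes count in the medians of the 12 markers. Fibroblast markers were at a summed 1324 to 1448 CPM in WT and 1648 to 5085 in HSA-LR, and 1 of 8 rose (Col3a1, log2 fold change 1.35 ± 0.35, adjusted p = 0.0456, edgeR). Erythrocyte markers, at a summed 339 to 587 CPM in WT and 1992, 384 and 901 in HSA-LR replicates 1, 2 and 3, and satellite cell markers, at 9.76 to 11.9 CPM in WT and 27.4, 13.6 and 14.2 in HSA-LR (Chodl alone 23.2, 10.0 and 11.1), had this order of libraries too. So had endothelial markers (122 to 139 CPM in WT, 180, 107 and 118 in HSA-LR), of which 0 of 6 were called. Adipocyte markers (74.1 to 469 CPM in WT, 220, 228 and 1480 in HSA-LR) and Schwann cell markers (9.89 to 16.9 CPM in WT, 20.5, 12.4 and 22.1 in HSA-LR) were highest in HSA-LR replicate 3. The summed level of markers of pericytes and smooth muscle was lower, at 497 to 529 CPM in WT and 347 to 375 in HSA-LR. Of these 4 markers only Abcc9 was called lower (log2 fold change -0.77 ± 0.18, adjusted p = 0.0303, edgeR). Its mean was 319 CPM in WT and 187.5 in HSA-LR. Rgs5 and Kcnj8 overlapped between the groups, and Kcnj8 had a positive log2 fold change of 0.12. Neutrophil markers, at 0.133 to 0.372 CPM in WT and 0.807 to 1.81 in HSA-LR, and lymphocyte markers, at most 0.645 CPM in any library, were near the detection limit, where 3 counts correspond to 0.199 to 0.285 CPM. The part of these cell types in the lysosomal differences was not tested.

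**Figure D4:**
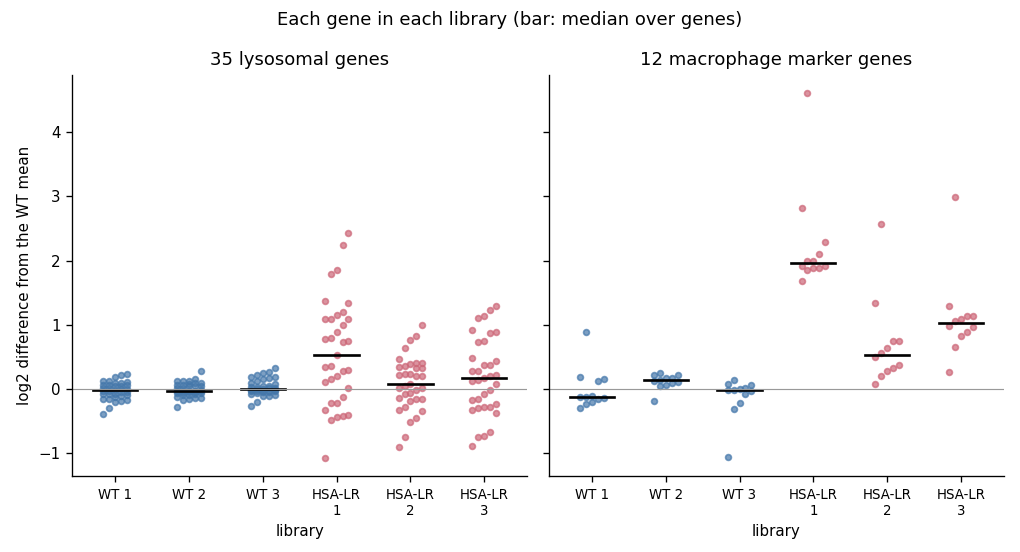
Log2 difference from the WT mean of each of 35 lysosomal genes (left) and 12 macrophage markers (right) in each library, with bars at the medians. Both panels have their highest median in HSA-LR replicate 1 (0.53 and 1.96) and their lowest within HSA-LR in replicate 2 (0.08 and 0.53). Among the markers, Trem2 and Aif1 passed the filter on low counts only through HSA-LR.

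A further 100 tested genes of lysosome function showed rises and falls in similar numbers, 7 and 6, with a median log2 fold change of 0.07. Among 26 other hydrolases 2 rose and 1 fell. Dnase2a, an acid nuclease, rose by a log2 fold change of 0.95 ± 0.26 (adjusted p = 0.0445, edgeR). Pla2g7, a secreted phospholipase of the platelet-activating factor pathway, fell by 1.01 ± 0.27 on the log2 scale (adjusted p = 0.0431, edgeR). The genes of the V-ATPase, the proton pump that acidifies the organelle, gave 0 that rose and 2 that fell of 16 tested (12.5% called). Both that fell encode forms of the same membrane subunit. They are Atp6v0a1 (-0.60 ± 0.16, adjusted p = 0.0429, edgeR) and Atp6v0a2 (-0.53 ± 0.11, adjusted p = 0.0238, edgeR). Of 16 alternative fits, the call was lost in 10 for Dnase2a, 5 for Pla2g7, 10 for Atp6v0a1 and 7 for Atp6v0a2.

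Of 21 other membrane proteins 2 rose (9.52%), and both are known from macrophages and other leukocytes. Cd68 was measured at 2.90, 3.38 and 2.68 CPM in WT and at 14.4, 6.45 and 8.06 CPM in HSA-LR (a difference on the log2 scale of 1.68 ± 0.31, adjusted p = 0.0148, edgeR), and Laptm5 had a log2 fold change of 1.49 ± 0.34 (adjusted p = 0.0296, edgeR). Of 20 genes for the delivery of enzymes to lysosomes 1 rose and 2 fell. Gnptab, which makes the mannose 6-phosphate tag, fell by 0.64 ± 0.15 on the log2 scale (adjusted p = 0.0276, edgeR), and Vps33a, a subunit of the tethering complexes, fell by 0.59 ± 0.13 (adjusted p = 0.0231, edgeR), while Gga2, a sorting adaptor, rose by 0.72 ± 0.15 (adjusted p = 0.0205, edgeR). Of 14 regulators, a list with the transcription factors Tfeb, Tfe3 and Mitf and the Rag and Ragulator genes, 0 were called by edgeR, 2 had an unadjusted edgeR p below 0.05 and 1 was called lower by DESeq2. Rragd, the one with the highest CPM, had a log2 fold change of -0.41 ± 0.26 (adjusted p = 0.317, edgeR). In the 16 alternative fits the call was lost in 7 for Laptm5 and Vps33a, 6 for Gnptab, and 5 for Cd68 and Gga2.

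All 3 measured inhibitors of cysteine cathepsins passed the test, but Cst3 and Cstb each lost the call in 8 of 16 alternative fits, among them those with the replicate block, the length trend removed, the covariate for 7SL and 7SK, and without HSA-LR replicate 3 or any WT replicate. With TPM the log2 fold change of Cst3 was 0.09, beside a median of -0.46 over all tested genes. Cst3, cystatin C, is secreted and was the most abundant, at 252, 250 and 227 CPM in WT and 432, 310 and 424 in HSA-LR (a difference on the log2 scale of 0.68 ± 0.17, adjusted p = 0.0367, edgeR). Cstb, the cytosolic cystatin B, was measured at 3.25, 5.43 and 3.05 CPM in WT and at 14.2, 6.62 and 9.80 CPM in HSA-LR (1.37 ± 0.33, adjusted p = 0.0323, edgeR). Cst6, cystatin E/M, fell from 23.2, 14.4 and 21.7 CPM in WT to 11.1, 10.0 and 9.67 CPM in HSA-LR (-0.95 ± 0.20, adjusted p = 0.0204, edgeR). The groups did not overlap for any of the 3 inhibitors, nor for 37.8% of all tested genes.

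Many lysosomal genes are known to carry the CLEAR element, to which TFEB and TFE3 bind, near their start. The promoters (250 bases before to 50 bases after the start of the canonical transcript, GRCm39, which for Ctsb lies inside the annotated gene) were searched for the palindrome GTCACGTGAC and for its core CACGTG, which lies inside it and reads alike on both strands. The palindrome was in 0 of the 35 promoters, in 5 of the 100 other lysosomal genes (5.0%) and in 65 of 12298 tested protein coding genes (0.529%). The core was in 10 of the 35 promoters (28.6%), in 25 of the 100 (25.0%) and in 1225 of the 12298 (9.96%). It was held by 1 of the 7 genes that rose (Naglu), by 1 of the 2 that fell (Gaa) and by 8 of the 26 others. The median log2 fold change was -0.07 for the 10 genes with the core and 0.45 for the 25 without it. Since no promoter held the palindrome, windows of 30 bases around the core, in capitals, are given here for both called genes, for the 3 most abundant genes that hold it, and for Glb1 and Sgsh, which had positive values without a call. They read 5′ to 3′ on the strand of the gene.
Naglu, chr11:100960835-100960864, plus strand: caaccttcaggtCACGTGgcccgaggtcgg
Gaa, chr11:119158637-119158666, plus strand: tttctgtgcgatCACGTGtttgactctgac
Ctsd, chr7:141941792-141941821, minus strand: tcttccttccccCACGTGacctgtatccag
Lamp1, chr8:13209088-13209117, plus strand: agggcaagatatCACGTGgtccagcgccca
Ctsb, chr14:63359879-63359908, plus strand: gcggtcaagcatCACGTGacgaatcagccc
Glb1, chr9:114230086-114230115, plus strand: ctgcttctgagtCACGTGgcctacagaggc
Sgsh, chr11:119246348-119246377, minus strand: gggcctgccgtgCACGTGaccgtggggagc

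The Lamp1 promoter held the core 4 times, of which the most upstream is shown.

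Transcript length and shared exons were checked as further properties of the 35 genes. Across all tested genes the median log2 fold change ran from 0.31 in the shortest to -0.18 in the longest of 8 length classes, while the median effective length was 2158 bases for the lysosomal genes and 2172 bases for all tested genes. Relative to the median of their own length class, 22 of the 35 genes were higher and 13 lower, with a median difference of 0.20. The abundance-weighted transcript length did not overlap between the groups for 2 of the 35 genes (5.71%), Ctsh and Neu1, and for 10.7% of all tested genes. It was 1283 ± 40.4 bases in WT and 1112 ± 59.4 bases in HSA-LR for Ctsh (SD, n = 3), and 2208 ± 332 and 2579 ± 52.0 bases for Neu1. Of the 35 genes 19 shared exon bases with another annotated gene, 15 of them with one at 1 CPM or more, and whether strand was used in counting is not stated.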

How the data were processed

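RNA was isolated with TRIzol from quadriceps at 12 weeks and sequenced as stranded total RNA libraries without ribosomal RNA (3 WT and 3 HSA-LR samples), per the labels. Groups were read from the titles. Per sample, the authors deposited a gene table with expected counts, TPM, FPKM, length and effective length (53947 genes). RSEM 1.3.1, Bowtie2 and GRCm39 are named in the submitters' processing notes, while the annotation release and the strand setting are not given in the sources used here. In the deposited expected counts the authors divided reads that match several genes between these, and 25 of the 35 lysosomal genes had whole counts (within 0.005) in all libraries. TPM, as deposited, is corrected for length and has the same sum in each library. The deposited FPKM values were not used for any result. Other columns deposited by the authors (length and effective length) served for levels per length and for length checks.

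Symbols, coordinates and promoters were taken from GENCODE M39 (GRCm39), in which 53400 gene identifiers (98.99%) were found, and promoter windows were read from the GRCm39 genome. After rounding, genes were filtered with filterByExpr (13576 left) and normalised by TMM, and the group effect was tested with the robust quasi-likelihood F test of edgeR 4.0.16 (R 4.3.3, limma 3.58.1). The choice of test was not taken from the study, whose methods describe small RNA libraries. Adjusted p-values are over all genes tested. Each SE was obtained by dividing the size of the log2 fold change by the square root of F. The common dispersion of 0.0535 corresponds to a coefficient of variation of 0.231. Library totals of 11468959 to 15023710 counts put 3 counts at 0.199 to 0.285 CPM, and limits of this kind cover counting error only. The procedure was also run on simulated counts with known changes. These were drawn independently for each gene and lack the shared displacement of HSA-LR replicate 1, so they cannot show how stable the calls are here.

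The 35 genes, the other gene lists and the tests were chosen with earlier results of these data known, and no p-value is given for a list. Values in every library were given for lysosomal genes that were called and for the 5 not called with the highest level per length, and of each further list up to 3 called genes were named, or the one with the highest CPM where none was called. A called gene of the further lists is not reported here. Further genes named with single values were chosen after their values were seen, as were the promoter windows, since the palindrome for which windows were planned was not found. Alternative procedures were limma-voom, DESeq2 1.42.0, limma-trend on TPM (log2 after adding 0.1), scaling by upper-quartile or RLE factors, a stricter filter or none, a replicate block, removal of the trend on length (loess, span 0.5), a covariate for 7SL and 7SK RNA, and fits that leave out 1 library each.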

Additional observations from a re-analysis of the deposited data

How the results depend on the processing

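With 3 libraries per group, the differences of many lysosomal genes lie near the threshold. The 7 genes called higher became 10 with DESeq2, 4 with limma-voom (3.35% of all tested genes), 4 with the length trend removed (2.39%), 1 with the covariate for 7SL and 7SK and 0 with TPM (0.368%), where 2 had an unadjusted p below 0.05. The 2 called lower became 1 with the length trend removed (5.61%), 3 with a stricter filter (7.86%) and 0 with TPM (3.45%), where 6 had an unadjusted p below 0.05. Of the other lysosomal genes, the 7 called higher became 11 with DESeq2, 4 with the length trend removed, 2 with the covariate and 0 with TPM, and the 6 called lower became 9 with DESeq2 and with no filter, 4 with the length trend removed and with upper-quartile factors, and 3 with TPM. The median log2 fold change of the 35 genes moved from 0.29 to 0.35 with upper-quartile factors, 0.17 with the length trend removed, -0.0075 with the covariate and -0.28 with TPM. With TPM the median of all tested genes also moved, from 0.04 to -0.46, and 22 of the 35 genes lay above it, as many as with TMM. The cause of these shifts was not tested. Leaving out each library in turn gave 0 to 13 lysosomal genes called higher, 0 to 4 called lower, 0 to 16 and 0 to 12 of the other lysosomal genes, and a median of 0.0905 to 0.3662.

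The replicate numbers shared by the groups were not taken as pairs. Correlations between the deviations of same-numbered libraries were 0.000517, -0.0949 and 0.228, and those of differently numbered libraries ran from -0.168 to 0.160. With 3 libraries per group these values cannot decide whether the samples are paired. With the replicate number as a block 4 lysosomal genes were called higher and 1 lower (1.87% and 4.01% of all tested genes), 5 and 2 of the other lysosomal genes, and the median was 0.28.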
